A study of Mus musculus with 12 samples.

Results

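The 10 regulators of pluripotency and of the epiblast Pou5f1, Nanog, Sox2, Utf1, Lin28a, Lin28b, Zfp42, Esrrb, Sall4 and Pou3f1, were followed through sorted cells of the gastrulating mouse embryo. They were chosen by name, and 10 of 10 were found by Ensembl gene ID among the 38924 genes of the count files. The RNA came from 12 libraries of mouse cells at stage E7.25, 3 per type, all from the Foxa2Cre:Rosa26-YFP line, in which a Cre driven by Foxa2 turns on a yellow fluorescent protein (YFP) that marks cells with a history of Foxa2 expression. The types were cardiac mesoderm that carried YFP (the labels call it ventricular), cardiac mesoderm without YFP (non-ventricular), endoderm gated on EPCAM, and hematopoietic mesoderm gated on KDR. All 12 libraries carried both alleles, no treatment is named, and the labels give no other control. They do not say whether replicates were separate embryos, litters or pools, so the p-values measure only the spread between these samples, which may be technical.

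Pluripotency rests on a circuit in which the POU factor Pou5f1 (OCT4), the HMG-box factor Sox2 and the homeobox factor Nanog bind many of the same enhancers, their own included. Before implantation the naive state adds Esrrb and Zfp42 (REX1), and after implantation the epiblast loses these and gains Pou3f1 (OCT6), while Utf1 is a gene of epiblast and stem cells alike. As germ layers form, the circuit is shut down, with Pou5f1 and Nanog lasting longest in the posterior epiblast, while Lin28a, Lin28b and Sall4 stay on more widely. The 2 LIN28 proteins bind RNA and block the maturation of let-7 microRNAs, and Sall4 is a zinc-finger factor of stem cells and of several early lineages.

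The core factors are known to bind DNA at octamer and SOX motifs, so the promoters of the circuit that hold an octamer are given first. RefSeq promoter entries on GRCm38.p6 matched 8 of the 10 genes, and Sall4 and Pou3f1 had none. Pou5f1, Nanog and Esrrb had 2 windows each, of which only that nearest the annotated start was searched. The RefSeq start site of Lin28b lies inside the gene as annotated here, so its window is not upstream of the annotated gene. The 250 bases before each start site were searched on both strands for the octamer core ATGCAAA, the octamer ATGCAAAT, which contains that core, the SOX core CATTGT, and the composite CATTGTNATGCAAA, in which SOX core and octamer core lie side by side. Among 32817 RefSeq windows of the same length, 4.13% held the octamer core, 1.6% the octamer, 10.7% the SOX core and 0.00609%, or 2 windows, the composite. Of the 8 genes, 3 held the octamer core: Nanog in the window chr6:122707239-122707488 (plus strand), Sox2 at chr3:34649745-34649994 (plus strand) and Zfp42 at chr8:43307010-43307259 (minus strand). They read as follows, 5′ to 3′ along the gene, with matches to the octamer and SOX motifs in capitals.
Nanog: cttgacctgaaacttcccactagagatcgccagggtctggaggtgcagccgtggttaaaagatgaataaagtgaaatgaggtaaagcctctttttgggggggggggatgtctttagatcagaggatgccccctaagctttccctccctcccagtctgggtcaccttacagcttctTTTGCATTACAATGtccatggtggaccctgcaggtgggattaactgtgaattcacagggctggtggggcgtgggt
Sox2: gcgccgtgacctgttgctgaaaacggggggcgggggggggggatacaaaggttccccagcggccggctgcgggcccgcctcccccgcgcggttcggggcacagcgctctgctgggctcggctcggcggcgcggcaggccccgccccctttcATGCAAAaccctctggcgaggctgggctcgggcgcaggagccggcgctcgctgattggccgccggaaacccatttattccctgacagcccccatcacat
Zfp42: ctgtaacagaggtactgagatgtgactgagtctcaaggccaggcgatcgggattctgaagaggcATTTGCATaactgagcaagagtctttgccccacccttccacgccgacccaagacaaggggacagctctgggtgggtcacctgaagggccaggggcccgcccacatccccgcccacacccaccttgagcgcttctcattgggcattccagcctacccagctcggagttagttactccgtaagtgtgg
In Nanog, the capitals from -75 to -62 relative to the start site are the composite read from the opposite strand. This window is thus among the 2 of the genome table that hold it. Nanog itself has 2 windows, and whether the other match is also in a Nanog window was not examined. In Sox2 the octamer core lies at -99 to -93, and in Zfp42 the full octamer lies at -186 to -179. A SOX core without an octamer stood in Lin28a, at -96 to -91. These are matches of letters, not measured binding. All 3 genes with an octamer core had their highest mean level in endoderm, as had Pou5f1 and Utf1, whose searched windows held none of the 4 motifs.

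Levels below are CPM, the counts of a gene scaled to 1000000 gene counts in its library, given for libraries 1, 2 and 3 of a type in that order. Libraries held 4472800 to 7888631 gene counts, so that 3 counts correspond to 0.380 to 0.671 CPM. For a count of 0 these 3 counts are taken as the limit, a bound for counting error only and not a hard maximum. Genes were tested with edgeR's quasi-likelihood test, two-sided, with Benjamini-Hochberg adjustment over the 14170 genes that passed its expression filter, and a gene counts as called at an adjusted p under 0.05. Of the 10 genes 9 passed that filter, and Zfp42 did not. Sox2 and Esrrb passed it only because of their endoderm libraries, so their separation from endoderm was partly set by the filter.

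The endoderm libraries also held genes listed as epiblast and ectoderm markers, and several libraries stood apart from the rest. The summed level of 13 endoderm markers was 1215 to 3166 CPM in endoderm and at most 87.9 CPM elsewhere, and Foxa2 stood at 55.1, 62.5 and 66.4 CPM there. Yet 8 epiblast and ectoderm markers, the studied regulators left out, also summed to 1724 to 1874 CPM in endoderm, against 169 to 517 CPM in YFP-positive cardiac, 159 to 377 CPM in YFP-negative cardiac and 6.66 to 187 CPM in hematopoietic mesoderm. EPCAM, the protein of the endoderm gate, is also carried by epiblast and ectoderm. The 8 markers were Sox3, Otx2, Fgf5, Slc7a3, Cdh1, Epcam, Grhl2 and Tfap2a, and Epcam was on the endoderm list too. In endoderm Cdh1, the epithelial cadherin, stood at 759, 646 and 594 CPM. Otx2 stood there at 381, 368 and 390 CPM, and Fgf5 at 313, 263 and 301 CPM. Tfap2a was low there, at 0.167, 1.65 and 3.04 CPM, and its highest value, 9.30 CPM, was in YFP-positive library 3. The part of endoderm cells themselves in the sum of the 8 markers was not tested. In each mesoderm type library 3 had the highest sum of these 8 markers. Cdh1, itself part of that sum, stood in these libraries at 57.2, 57.0 and 66.1 CPM, against 1.79 to 23.3 CPM in the other 6 mesoderm libraries. Hematopoietic library 3 also had the highest sum of 10 cardiac markers in its type, 1154 CPM against 426 and 493 CPM, and of 9 primitive streak markers, 921 CPM against 360.2 and 275 CPM. The 8 germ cell markers summed to 339 to 375 CPM in endoderm, 65.7 to 183 CPM in hematopoietic mesoderm and 19.4 to 58.5 CPM in the cardiac fractions. In endoderm the sum lay mostly in Prdm1, at 185, 179 and 191 CPM, and Kit, at 137, 156 and 166 CPM, genes that other cell types also use, while Nanos3 was at 0 in all 12 libraries and Prdm14 and Dppa3 did not exceed 1.12 CPM. The part of germ cells in the regulators' values was not tested.

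**Figure D1:**
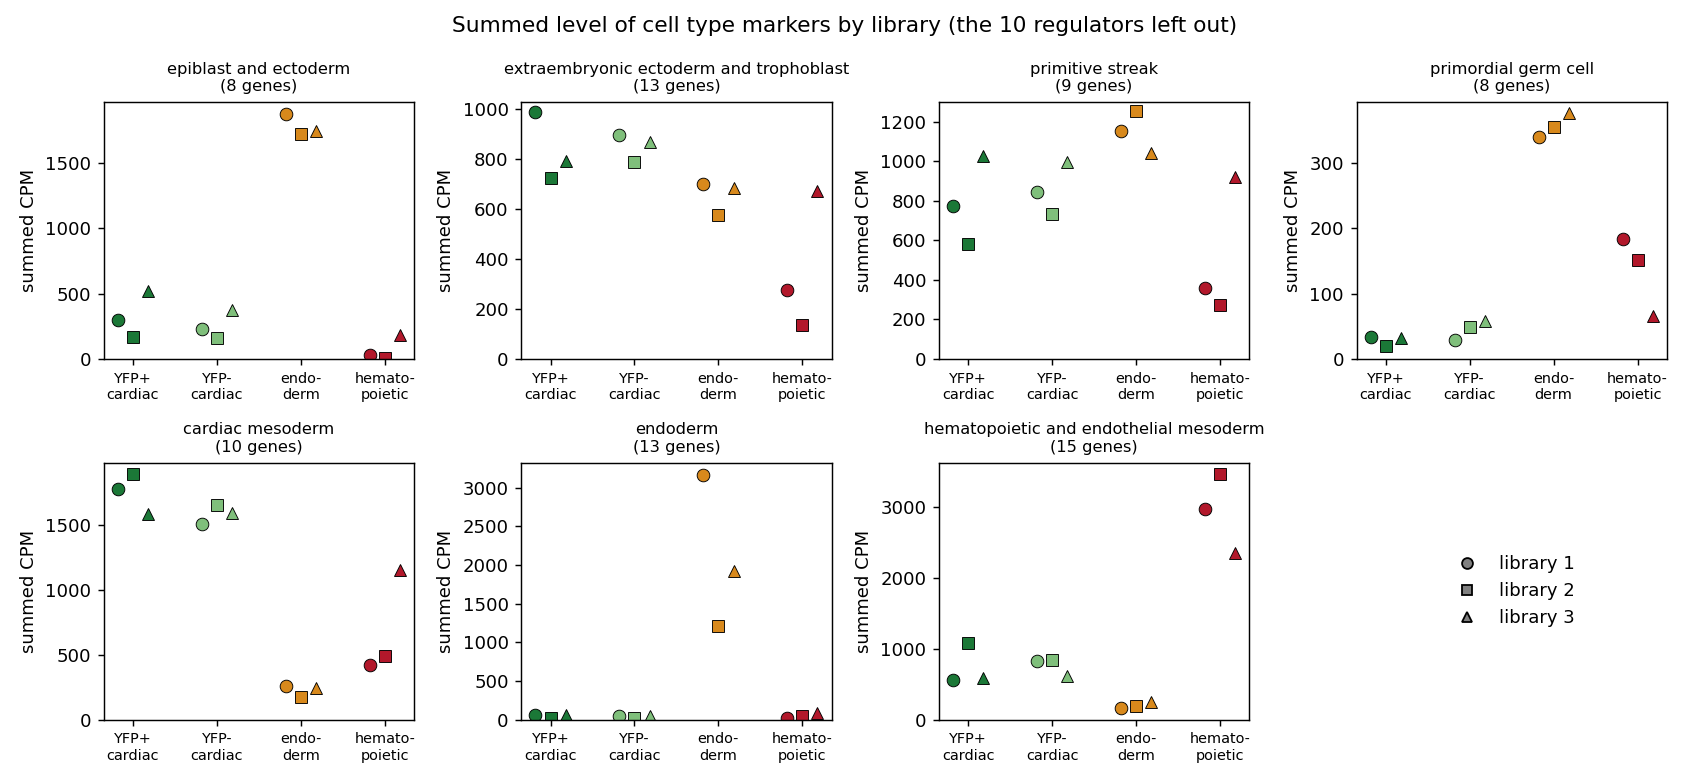
Summed CPM of 7 lists of cell type markers (vertical axes, from 0) in the 4 sorted types; each symbol is a library, with its shape giving the library number. The endoderm libraries hold the highest sums of both endoderm and epiblast markers, and library 3 has the highest epiblast sum in each mesoderm type.

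The 10 genes fell into 2 tiers of level. Per kilobase of annotated exon, the scale on which genes can be set side by side, Lin28a averaged 108, Sall4 105 and Lin28b 50.8 CPM per kb over the 12 libraries, and none was at 0 in any library. Of the other 7, Utf1 averaged 26.7, Nanog 7.24, Pou5f1 5.44, Pou3f1 1.72, Sox2 1.54, Esrrb 1.42 and Zfp42 0.213 CPM per kb. Each of these 7 was at 0 in at least 1 library. The order in endoderm alone brought the tiers together for Utf1, at 97.9 ± 4.50 (SD, n = 3) CPM per kb, close to Lin28a at 104 ± 10.9 and Sall4 at 111 ± 12.9, and above Lin28b at 41.3 ± 6.45. The core trio was lower there, with Nanog at 20.5 ± 5.16, Pou5f1 at 12.8 ± 3.28 and Sox2 at 5.64 ± 2.54 CPM per kb. In bulk RNA, fewer cells that express a gene and less RNA per cell cannot be told apart.

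**Figure D2:**
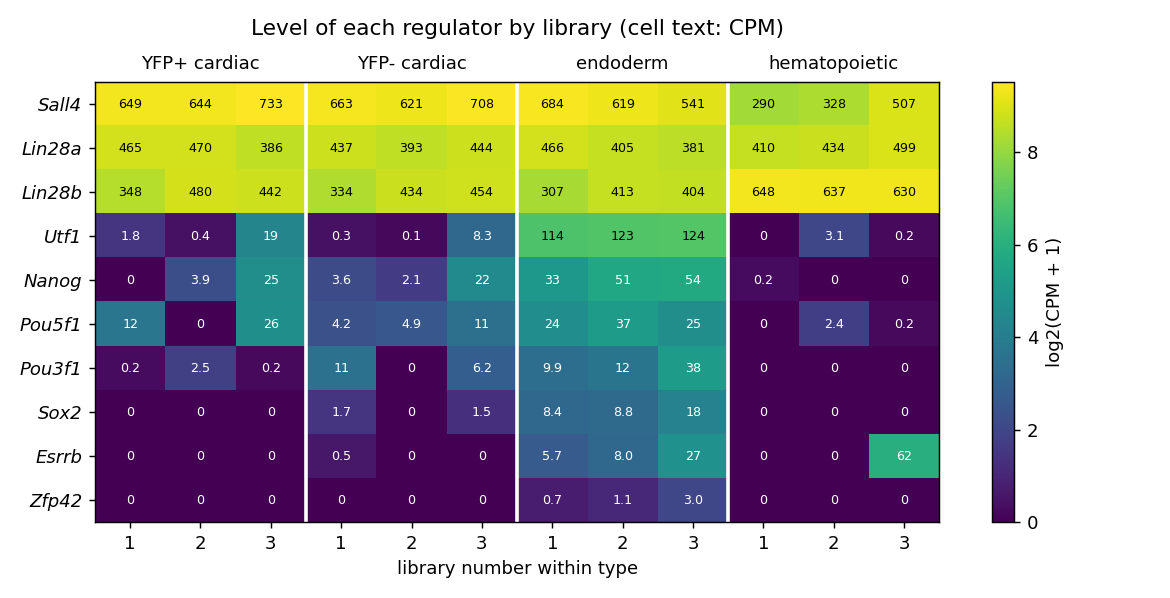
Level of the 10 regulators (rows) in the 12 libraries (columns, grouped by type); colour is log2(CPM + 1) and the text in each cell is the CPM. Sall4, Lin28a and Lin28b are high in every library, while the other 7 are highest in endoderm apart from Esrrb, whose highest value is in hematopoietic library 3.

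Nanog (ENSMUSG00000012396.6, chr6:122707489-122714633, plus strand, GRCm38), the homeobox factor of the core circuit, was highest in endoderm and all but missing from hematopoietic mesoderm. It stood at 32.6, 51.2 and 53.9 CPM in endoderm. In YFP-positive cardiac mesoderm it stood at 0, 3.91 and 25.2 CPM, and in YFP-negative cardiac mesoderm at 3.65, 2.11 and 22.1 CPM. In hematopoietic mesoderm it stood at 0.224, 0 and 0 CPM, a total of 1 count. The endoderm libraries were above all 9 mesoderm libraries. In both cardiac fractions library 3, which also had the highest Cdh1 of its fraction, was far above the other 2. Hematopoietic library 3, with Cdh1 at 66.1 CPM, the highest of the mesoderm libraries, nevertheless held Nanog at 0. The part of epithelial cells in those values was not tested. Endoderm and hematopoietic mesoderm differed by 8.87 ± 2.16 (SE) on the log2 scale, with an adjusted p of 0.0337 by edgeR, and the ratio of counts was 730-fold with an exact 95% interval from 131 to 28860, which covers counting error only. This call was lost whichever of the 6 endoderm and hematopoietic libraries was left out, with adjusted p from 0.0677 to 0.106, although the endoderm libraries stayed higher. The order of means was endoderm, then the 2 cardiac fractions, then hematopoietic mesoderm. The cardiac means of 9.71 ± 13.6 (YFP-positive) and 9.29 ± 11.1 CPM (YFP-negative, SD, n = 3) did not differ beyond their spread. The YFP-positive fraction overlapped hematopoietic mesoderm and the YFP-negative did not, and neither difference was called (edgeR adjusted p of 0.109 and 0.142). Nanog-ps1, a pseudogene, shares 245 bases at 97.6% identity with Nanog, so reads from that stretch could be lost or misassigned.

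Pou5f1 (ENSMUSG00000024406.10, chr17:35506018-35510772, plus strand), the POU factor that is indispensable for pluripotent cells, was present in endoderm and, unevenly, in cardiac mesoderm. It stood at 24.1, 37.3 and 25.0 CPM in endoderm and at 0, 2.39 and 0.192 CPM in hematopoietic mesoderm. In YFP-positive cardiac mesoderm it stood at 12.2, 0 and 25.9 CPM, a range that reached into that of endoderm. In YFP-negative cardiac mesoderm it stood at 4.17, 4.92 and 10.5 CPM, below endoderm and above hematopoietic mesoderm in every library. No pair was called for Pou5f1, and the difference closest to the threshold was endoderm above hematopoietic mesoderm by 4.88 ± 1.80 on the log2 scale, with an adjusted p of 0.121 by edgeR. The order of means was endoderm, YFP-positive cardiac, YFP-negative cardiac and hematopoietic mesoderm, and the 2 cardiac fractions overlapped. Its exons overlap those of Gm19553 on the opposite strand by 317 bases, but that gene had 0 counts in the 12 libraries.

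Sox2 (ENSMUSG00000074637.4, chr3:34650405-34652461, plus strand), the usual partner of Pou5f1 and a factor of the anterior epiblast and neural plate, was at 0 in 7 of the 12 libraries and highest in endoderm. It stood at 8.37, 8.81 and 17.6 CPM there. It was at 0 in all 3 YFP-positive cardiac and all 3 hematopoietic libraries, and at 1.74, 0 and 1.48 CPM in YFP-negative cardiac mesoderm. Against the limit taken for a count of 0 in each library, endoderm was at least 20.8-fold higher than YFP-positive cardiac and at least 19.8-fold higher than hematopoietic mesoderm. The edgeR adjusted p was 0.0952 for the first of these and 0.0547 for the other, so neither was called. In YFP-negative cardiac mesoderm Sox2 was lower in every library than in any endoderm library, at -3.37 ± 1.68 on the log2 scale relative to endoderm with an edgeR adjusted p of 0.602.

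Utf1 (ENSMUSG00000047751.9, chr7:139943789-139945112, plus strand), a chromatin-associated factor of the epiblast and a direct target of OCT4 and SOX2, was the highest of the low tier in endoderm. It stood at 114, 123 and 124 CPM in endoderm. In YFP-positive cardiac mesoderm it stood at 1.80, 0.355 and 19.1 CPM, in YFP-negative at 0.347, 0.141 and 8.31 CPM, and in hematopoietic mesoderm at 0, 3.07 and 0.192 CPM. Every endoderm library was above every mesoderm library, with no value between 19.1 and 114 CPM. Even so, no pair was called: edgeR gave adjusted p of 0.0575 for endoderm over hematopoietic mesoderm (6.60 ± 1.89 on the log2 scale), 0.209 for the YFP-negative fraction (-5.29 ± 1.76 relative to endoderm) and 0.255 for the YFP-positive fraction (-3.94 ± 1.65). The mesoderm libraries spread widely among themselves, and the highest of each cardiac fraction was again library 3. The 3 mesoderm types overlapped one another.

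Pou3f1 (ENSMUSG00000090125.2, chr4:124656807-124660655, plus strand), a POU factor of the primed epiblast and of anterior ectoderm, resembled Sox2. It stood at 9.87, 11.8 and 37.5 CPM in endoderm and at 0 in all 3 hematopoietic libraries, so that endoderm was at least 33.7-fold higher, with an edgeR adjusted p of 0.0518. In YFP-negative cardiac mesoderm it stood at 11.1, 0 and 6.23 CPM, overlapping endoderm, and in YFP-positive cardiac mesoderm at 0.200, 2.49 and 0.179 CPM, below all endoderm libraries. The order of means was endoderm, YFP-negative cardiac, YFP-positive cardiac and hematopoietic mesoderm, and the 2 cardiac fractions overlapped. Pou3f1 and Sox2 were the pair of regulators with the closest profiles over the 12 libraries (Pearson r = 0.911 of log2 CPM, given as a description, since the libraries share 4 types).

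Esrrb (ENSMUSG00000021255.11, chr12:86361117-86521628, plus strand), an orphan nuclear receptor of naive pluripotency that is also a regulator of extraembryonic ectoderm, was present in all 3 endoderm libraries and in 1 hematopoietic library. It stood at 5.69, 7.98 and 27.3 CPM in endoderm. In hematopoietic mesoderm it stood at 0, 0 and 61.9 CPM, and library 3 alone held all 323 counts, the highest level of Esrrb in the series. In YFP-positive cardiac mesoderm it was at 0 in all 3 libraries, so that endoderm was at least 24.5-fold higher (edgeR adjusted p of 0.183), and in YFP-negative cardiac mesoderm at 0.521, 0 and 0 CPM, or 3 counts, a ratio of 94.9 with an exact 95% interval from 32.2 to 463 (adjusted p of 0.456). The lone high library was not particular to Esrrb: in hematopoietic library 3, 131 of the 6633 genes with at least 100 counts had 3 counts or fewer in both other libraries of the type. For comparison, such genes numbered 80 and 155 in hematopoietic libraries 1 and 2, and 1, 4 and 6 in the endoderm libraries. Elf5, a defining marker of extraembryonic ectoderm, stood at 0.383 CPM in hematopoietic library 3, while all 13 markers of that tissue summed to 276, 138 and 672 CPM in libraries 1, 2 and 3. Of the 672 CPM, Hand1 held 380.3 and Eomes 241 CPM, both also genes of mesoderm or primitive streak, and the part of extraembryonic ectoderm in the Esrrb value was not tested.

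Zfp42 (ENSMUSG00000051176.5, chr8:43295063-43306980, minus strand), the zinc-finger gene whose loss marks exit from the naive state, was the lowest of the 10. It stood at 0.669, 1.10 and 3.04 CPM in endoderm, 36 counts in all, and at 0 in the other 9 libraries. Endoderm was at least 2.88-fold higher than YFP-positive cardiac, 3.47-fold higher than YFP-negative cardiac and 2.74-fold higher than hematopoietic mesoderm. Its pseudogene Zfp42-ps1 shares 266 bases at 98.1% identity, and the gene was not tested because it did not pass the expression filter.

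Within endoderm, library 3 held the highest value of Sox2, Pou3f1, Esrrb and Zfp42, but the 3 libraries were close for Utf1. Elf5 followed the first pattern, at 9.04, 5.50 and 37.6 CPM, while the sum of the 8 epiblast markers did not, at 1874, 1724 and 1741 CPM. Cdx2, another marker of extraembryonic ectoderm, stood at 2.84, 0 and 8.49 CPM, and Rhox5 at 134, 55.3 and 98.9 CPM. The part of cells outside the endoderm, of epiblast or of extraembryonic ectoderm, in the endoderm values of the 7 genes was not tested.

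**Figure D3:**
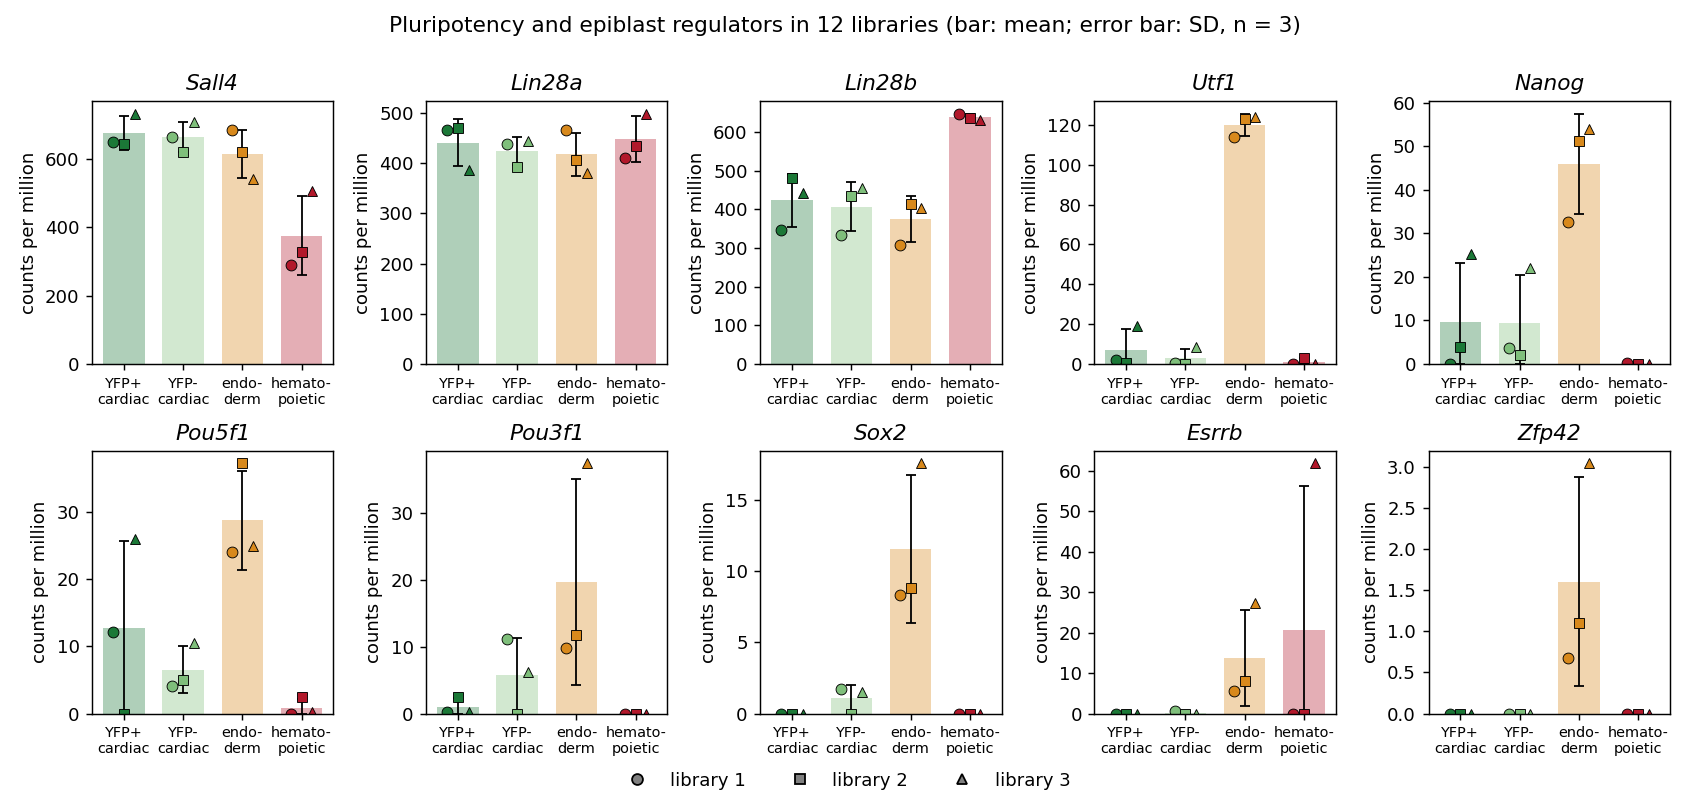
CPM of each regulator (vertical axes, each from 0) in the 4 sorted types; bars are means, error bars are the SD (n = 3, cut at 0), and symbols are single libraries by number. Utf1 lies at 114 to 124 CPM in endoderm and at or below 19.1 CPM elsewhere, and Lin28b lies at 630.0 to 648 CPM in hematopoietic mesoderm, above every other library.

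The broadly expressed tier comprised Lin28b, Lin28a and Sall4. Lin28b (ENSMUSG00000063804.7, chr10:45376620-45486395, minus strand), the paralog of Lin28a that holds back let-7 in fetal blood progenitors among other cells, was highest in hematopoietic mesoderm. It stood at 648, 637 and 630.0 CPM there, a spread of only 8.90 CPM (SD, n = 3). In the other types it stood at 348, 480.3 and 442 CPM (YFP-positive cardiac), 334, 434 and 454 CPM (YFP-negative cardiac) and 307, 413 and 404 CPM (endoderm). All 3 hematopoietic libraries were above the other 9. Lin28b fell by 0.94 ± 0.17 (SE) on the log2 scale from hematopoietic mesoderm to endoderm, with an adjusted p of 0.00841 by edgeR, and this call was lost without endoderm library 1 (adjusted p of 0.0616) and without the 4 libraries numbered 3 (0.112). The differences from YFP-negative cardiac (-0.77 ± 0.17, adjusted p of 0.0607) and YFP-positive cardiac mesoderm (-0.63 ± 0.17, adjusted p of 0.0788) pointed the same way and were not called. Endoderm and the 2 cardiac fractions overlapped, so that only the step to hematopoietic mesoderm exceeded the spread between libraries. Matched by library number, Lin28b was higher in each cardiac fraction than in endoderm in 3 of 3 numbers. Neither difference was called with the replicate block (edgeR adjusted p of 0.307 for YFP-positive and 0.895 for YFP-negative).

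Lin28a (ENSMUSG00000050966.3, chr4:134003330-134018841, minus strand), the paralog that characterizes embryonic stem cells, was level across the 4 types. It stood at 465, 470.2 and 386 CPM in YFP-positive cardiac, 437, 393 and 444 CPM in YFP-negative cardiac, 466, 405 and 381 CPM in endoderm and 410.3, 434 and 499 CPM in hematopoietic mesoderm. Every pair of types overlapped, and the 6 differences lay between -0.28 and 0.21 on the log2 scale, each with an SE of 0.14. The smallest edgeR adjusted p was 0.282. Whether the profiles of the 2 paralogs differ from each other was not tested. Overlap with the opposite-strand gene Gm13061 spans 234 exonic bases, and that gene held 9 counts over the 12 libraries.

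Sall4 (ENSMUSG00000027547.11, chr2:168748332-168767943, minus strand), the zinc-finger factor, was lowest in hematopoietic mesoderm. It stood at 649, 644 and 733 CPM in YFP-positive cardiac, 663, 621 and 708 CPM in YFP-negative cardiac and 684, 619 and 541 CPM in endoderm. In hematopoietic mesoderm it stood at 290.0, 328 and 507 CPM, below the other 9 libraries, with library 3 nearest to them. The other 3 types overlapped one another. The differences from hematopoietic mesoderm were 0.80 ± 0.19 for YFP-positive cardiac (edgeR adjusted p of 0.0537), 0.70 ± 0.19 for YFP-negative cardiac (0.116) and 0.54 ± 0.19 for endoderm (0.111), none of them called. Each of the 3 was called in 1 of the 6 fits with a library left out, that without hematopoietic library 3. There the differences were 1.12, 1.01 and 0.85 on the log2 scale, with edgeR adjusted p of 0.00158, 0.00387 and 0.00482. Since that library was the one nearest the other types, leaving it out could only widen the differences, so these calls add no support. Library 3 also had the highest cardiac and primitive streak marker sums of its type. The part of those other cell types in the Sall4 level of library 3 was not tested. Gm14261 on the opposite strand overlaps 526 exonic bases and held 50 counts over the 12 libraries.

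**Figure D4:**
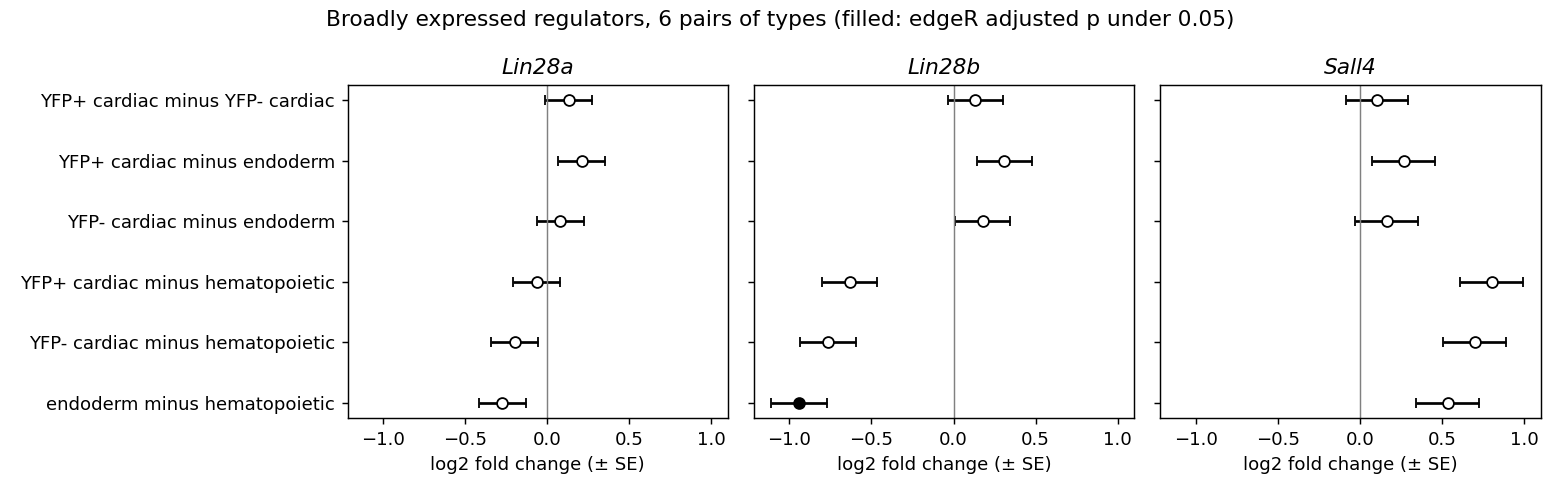
Differences of Lin28a, Lin28b and Sall4 between the 6 pairs of types as log2 fold changes (horizontal axis, first type minus second, error bars SE from edgeR); filled points have an adjusted p under 0.05. The single filled point is Lin28b in endoderm against hematopoietic mesoderm, at -0.94, and the Sall4 points against hematopoietic mesoderm lie at 0.54 to 0.80.

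Read by pair of types, no regulator was called by YFP history. Between YFP-positive and YFP-negative cardiac mesoderm edgeR called 0 of the 9 members tested and 0% of all genes. At an unadjusted p under 0.05 there was 1 member, Sox2, against 7.49% of all genes, DESeq2 called 0 members and 0.79% of genes, and limma voom called 0 and 0%. In no pair did DESeq2 give an adjusted p for Utf1 or Esrrb, so its counts here and below are of the other 7 members. In none of the 9 did the libraries of the 2 fractions stay apart, against 11.8% of all genes. For Lin28a, Lin28b and Sall4 the differences were 0.13 ± 0.14, 0.13 ± 0.17 and 0.10 ± 0.19 on the log2 scale. For Nanog and Pou5f1 they were 0.15 ± 1.44 and 1.04 ± 1.53, with errors larger than the differences.

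Between YFP-positive cardiac mesoderm and endoderm edgeR called 0 of 9 members and 1.54% of all genes. Nanog, Sox2, Utf1, Esrrb and Pou3f1, 5 of 9, were lower in every YFP-positive library than in any endoderm library, against 29.6% of genes that did not overlap in either direction. At an unadjusted p under 0.05 there were 4 members (Sox2, Utf1, Esrrb and Pou3f1) against 15.8% of genes, DESeq2 called 1 (Sox2) against 6.56%, and limma voom with quality weights called 3 (Sox2, Utf1 and Esrrb) against 7.97%. The median difference of the 9 members was -2.10 on the log2 scale, and that of all genes 0.01. The YFP-negative fraction had 0 of 9 members and 1.31% of genes called by edgeR and a member median of -2.08. Here Pou5f1, Nanog, Sox2, Utf1 and Esrrb, 5 of 9, were lower in every library, against 28.6% of genes. The unadjusted count was 2 members (Utf1 and Esrrb) against 10.3% of genes, DESeq2 called 0 against 4.27%, and voom called 3 (Sox2, Utf1 and Esrrb) against 12.8%. The 2 comparisons share the endoderm libraries, and the counts and medians of both include Sox2 and Esrrb, which passed the filter through endoderm.

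Cardiac and hematopoietic mesoderm had 1 regulator, Lin28b, lower in cardiac and 1, Sall4, higher in cardiac in every library of both fractions. Between the YFP-positive fraction and hematopoietic mesoderm edgeR called 0 of 9 members and 1.79% of genes, and 3 of 9 did not overlap (Sall4 and Pou3f1 higher, Lin28b lower in cardiac mesoderm) against 13.8% of genes. At an unadjusted p under 0.05 there were 6 members (Pou5f1, Nanog, Lin28b, Esrrb, Sall4 and Pou3f1) against 19.5% of genes, DESeq2 called 3 (Nanog, Lin28b and Sall4) against 10.6%, and voom called 0 against 0.127%. For the YFP-negative fraction edgeR called 0 of 9 members and 0.593% of genes, and 4 of 9 did not overlap (Pou5f1, Nanog and Sall4 higher, Lin28b lower) against 18.3%. The unadjusted count was 6 members (Nanog, Sox2, Lin28b, Esrrb, Sall4 and Pou3f1) against 17.4% of genes, DESeq2 called 4 (Nanog, Lin28b, Sall4 and Pou3f1) against 7.42%, and voom called 0 against 0.67%. With genes at 0 in a whole type set to their bound, the member medians were 0.71 and 0.87 on the log2 scale.

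Endoderm against hematopoietic mesoderm was the pair with called members. The 2 genes called by edgeR were Nanog, higher in endoderm, and Lin28b, lower, against 5.65% of all genes called. Of the 9 members 7 did not overlap: Nanog, Pou5f1, Utf1, Sox2, Pou3f1 and Sall4 were higher in every endoderm library and Lin28b was lower, against 33.9% of all genes. The same 7 had an unadjusted p under 0.05, against 22.8% of genes. DESeq2 called 6 of them, with no adjusted p for Utf1, against 13.1% of genes, and voom called 4 (Nanog, Utf1, Sox2 and Lin28b) against 8.65%. The member median was 4.88 on the log2 scale, or 4.31 with Sox2 and Pou3f1 at their bounds, against 0.07 for all genes. The counts and the median include Sox2 and Esrrb, which passed the filter through endoderm. Scaling by plain totals moved the median of all genes in this pair to 0.24, and no direction named here for the 7 turned.

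The wider pathway was read through 4 lists that leave out the 10 genes. Among 19 other naive pluripotency genes 11 passed the filter. Tbx3, a T-box factor of naive cells that is also a mesoderm gene, was higher in both cardiac fractions than in endoderm (2.56 ± 0.29 and 2.74 ± 0.29 on the log2 scale, edgeR adjusted p of 0.000456 and 0.000287) and lower in endoderm than in hematopoietic mesoderm (-2.33 ± 0.28). Tfcp2l1 was higher in endoderm than in hematopoietic mesoderm (8.34 ± 1.95, adjusted p of 0.0295), a call lost in 6 of 6 fits with a library left out. The list median was 0.80 in endoderm against hematopoietic mesoderm, beside 0.07 for all genes. Klf4 stood at 5.07 to 7.36 CPM in endoderm. It was higher in every cardiac library, at 7.87 CPM or more in YFP-positive and 14.2 CPM or more in YFP-negative libraries. Neither difference from endoderm was called (edgeR adjusted p of 0.847 for YFP-positive and 0.905 for YFP-negative). In hematopoietic mesoderm Klf4 stood at 0.224, 0.171 and 9.39 CPM. Tcl1, another naive gene, was at 0 in all 12 libraries.

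Formative and primed epiblast genes, 22 of 22 tested, were the list with the most calls. In endoderm 8 were called higher and 1 lower than in hematopoietic mesoderm, with a list median of 2.53 on the log2 scale, or 2.46 with genes at 0 in a type set to their bound. Over all genes edgeR called 5.65% in that pair, and the median was 0.07. Otx2, the homeobox factor of primed and anterior epiblast, was higher in endoderm (7.49 ± 0.61, edgeR adjusted p of 2.8e-05), YFP-positive (6.39 ± 0.59) and YFP-negative cardiac mesoderm (5.84 ± 0.58) than in hematopoietic mesoderm, where it did not exceed 2.49 CPM. The other 7 called higher were Pim2, Dnmt3b, Etv5, Slc7a3, Trh, Zic5 and Foxd3. Of these, Zic5 and Foxd3 were not called with the replicate block (adjusted p of 0.0613 and 0.0510), and Pim2 alone was called in all 6 fits with a library left out. Dnmt3b was lost in 1 of these fits, Etv5, Trh and Zic5 in 4, Slc7a3 in 5 and Foxd3 in 6. Sall3, a paralog of Sall4, was the 1 called lower (-2.12 ± 0.32, adjusted p of 0.00280). L1td1, an RNA-binding protein of pluripotent cells, Trh, Dnmt3b, the de novo DNA methyltransferase of the epiblast, and Pim2 were the 4 called lower in YFP-positive cardiac mesoderm than in endoderm. The first 3 were also called lower in the YFP-negative fraction, where 1.31% of all genes were called, against 1.54% in the YFP-positive. L1td1 differed by -3.50 ± 0.41 and -2.28 ± 0.39 in those 2 pairs, and Dnmt3b by -0.88 ± 0.17 and -0.98 ± 0.17. Leaving out a single library ended the L1td1 call in the YFP-negative fraction against endoderm (its library 3, or endoderm library 3) and the Dnmt3b calls (endoderm library 1 in all 3 pairs, and 4 others in the YFP-positive fraction). It also ended, in the YFP-positive fraction against endoderm, the call of Trh (YFP-positive library 1 or 2, or endoderm library 1) and that of Pim2 (5 of 6 fits, all but that without YFP-positive library 3). Against hematopoietic mesoderm, Otx2 and Etv5 were called higher and L1td1 and Sall3 lower in the YFP-positive fraction, and Otx2 alone in the YFP-negative. Of these, Etv5 and Sall3 were not called with the replicate block (adjusted p of 0.0589 and 0.0605) and were lost in 4 and 5 of 6 fits with a library left out, and the L1td1 call was lost without YFP-positive library 1 or 2.

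In the Lin28 and let-7 axis, 15 of 15 genes were tested. Hmga2, a chromatin protein and classic let-7 target, was higher in YFP-positive cardiac mesoderm than in endoderm (1.23 ± 0.15, edgeR adjusted p of 0.00122) and hematopoietic mesoderm (0.84 ± 0.15, 0.0175), and YFP-negative cardiac mesoderm was above endoderm too (0.92 ± 0.15, 0.00872). Its levels were 904 to 984 CPM in the YFP-positive, 709 to 865 in the YFP-negative, 391 to 470.2 in the endoderm and 406 to 561 CPM in the hematopoietic libraries. Arid3b, also a let-7 target, was lower in hematopoietic mesoderm than in endoderm (1.82 ± 0.29, endoderm minus hematopoietic), YFP-positive (2.08 ± 0.29) and YFP-negative cardiac mesoderm (1.54 ± 0.29). Hematopoietic mesoderm, where Lin28b was highest, held the lowest Arid3b, at 42.7 to 99.2 CPM. Hmga2 was instead lower in endoderm than in hematopoietic mesoderm (-0.39 ± 0.15, not called), and a link to let-7 was not tested. Dicer1 (-0.82 ± 0.16), Trim71 (-0.41 ± 0.10) and Ago2 (-0.40 ± 0.10) were called lower in endoderm than in hematopoietic mesoderm, as Lin28b was, but only Dicer1, the enzyme that cuts let-7 precursors, was called in more than 1 of the 6 fits with a library left out, and Ago2 was not called with the replicate block (adjusted p of 0.0534). Igf2bp1, a let-7 target that binds RNA, was called higher in YFP-positive cardiac mesoderm than in endoderm (0.62 ± 0.13), a call kept in 1 of the 6 fits. Leaving out a single library also ended the Hmga2 call against hematopoietic mesoderm (YFP-positive library 3), that of Hmga2 in the YFP-negative fraction (its libraries 1 and 3, and endoderm library 3), that of Arid3b in the YFP-negative fraction (each of its 3 libraries) and that of Dicer1 (endoderm libraries 1 and 2). The list median was -0.34 in endoderm against hematopoietic mesoderm, with 1 called higher and 3 lower, beside a median of 0.07 and 5.65% called for all genes.

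Chromatin cofactors of self-renewal were 17, all tested, and mostly level. Tet1, the methylcytosine dioxygenase of pluripotent cells, was higher in endoderm (0.98 ± 0.15, edgeR adjusted p of 0.00283) and YFP-positive cardiac mesoderm (0.91 ± 0.15, 0.0113) than in hematopoietic mesoderm. Jarid2, a Polycomb cofactor, was higher in the same pairs (1.70 ± 0.22 and 1.09 ± 0.22, adjusted p of 0.00127 and 0.0303), the latter not called with the replicate block (0.0634) or without YFP-positive library 2 or 3. Smarca4, the chromatin remodelling ATPase, was lower in endoderm than in hematopoietic mesoderm (-0.58 ± 0.13, adjusted p of 0.0258), a call kept in 2 of 6 fits with a library left out. No other gene of the list was called in any pair, and the list medians lay between -0.05 and 0.09, beside 0.01 to 0.07 for all genes.

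**Figure D5:**
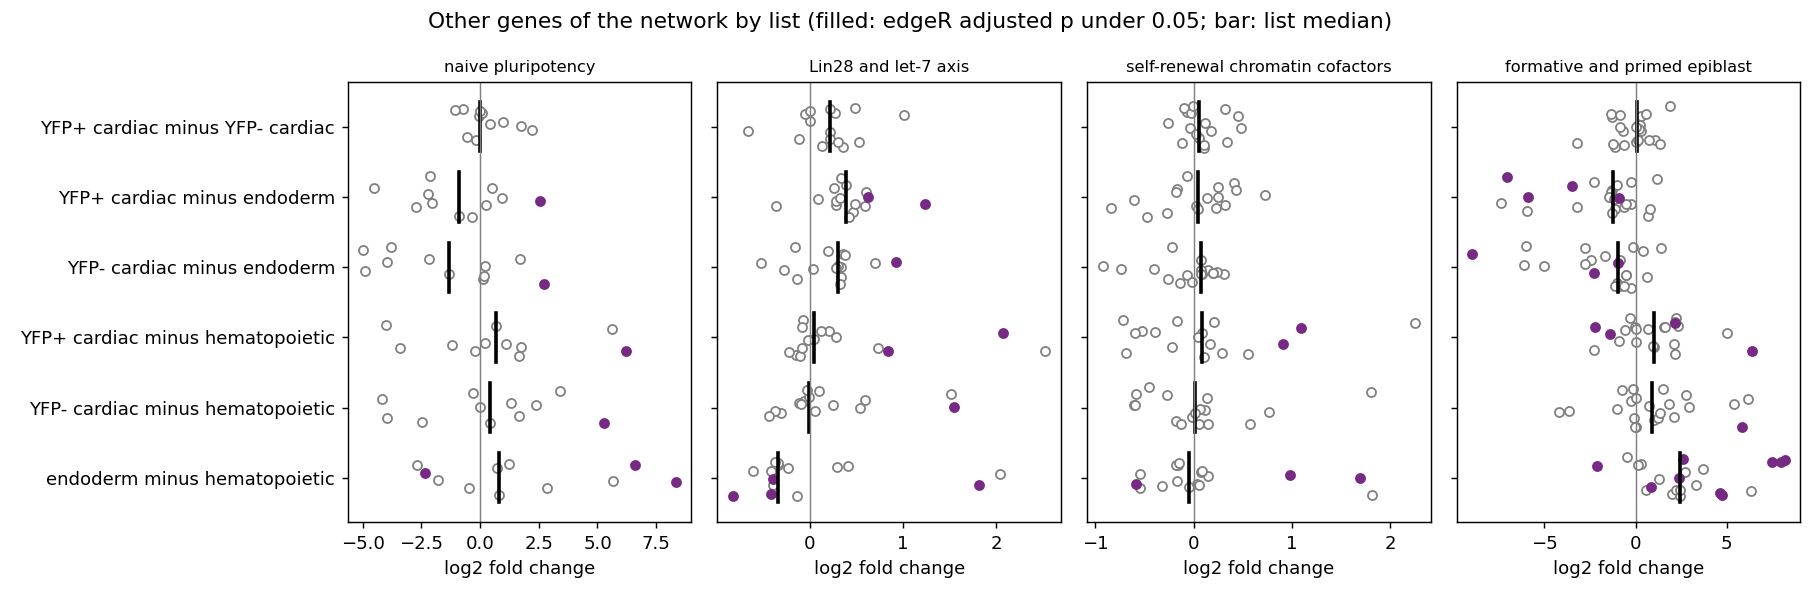
Log2 fold changes (horizontal axes) of the tested genes of the 4 pathway lists in the 6 pairs of types (rows, first type minus second); filled points have an edgeR adjusted p under 0.05, bars are list medians, and genes at 0 in a whole type are drawn at their bound. The formative and primed list has 8 filled points above 0 in endoderm against hematopoietic mesoderm. In that pair edgeR called 5.65% of all genes, with a median of 0.07.

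For the 6 regulators with a mean of at least 10 CPM, the 3 genes with the most similar profile over the 12 libraries were found among 9042 genes, by Pearson r of log2 CPM. For Utf1 they were Nodal (r = 0.946), the ligand of the epiblast, Shroom3 (0.946) and Prr36 (0.945), and Nodal averaged 44.2 CPM in endoderm and 0 in hematopoietic mesoderm. For Nanog they were St8sia3 (0.927), Ctps2 (0.919) and Jarid2 (0.917), the Polycomb cofactor named above. For Pou5f1 they were Ccdc171 (0.946), Mxd1 (0.935) and Dxo (0.913). For Sall4 they were Tdgf1 (0.970), the Nodal co-receptor also called Cripto, Ypel3 (0.963) and Eomes (0.952), a T-box factor of the primitive streak. For Lin28b they were Arhgef15 (0.926), a gene of endothelium, Ehd4 (0.924) and the amino acid transporter Slc7a5 (0.923). For Lin28a they were Rps3a1 (0.935), Srsf7 (0.874) and Hmgn1 (0.867). These correlations are descriptions over libraries that share 4 types, and they carry no test.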

How the data were processed

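The authors deposited unnormalized read counts for each gene of 12 mouse libraries, from RNA amplified with a low-input kit, per the labels' protocols. The submitters' processing notes name STAR 2.5.0a, Picard, HTSeq 0.6.0, DESeq2 and mm10, while annotation and strand setting are not given in the sources used here. The 5 summary categories of each file name no gene and were left out, and genes held 18.3% to 21.5% of tallied reads. Counts were fitted with edgeR 4.0.16 in R 4.3.3 (TMM scaling, default expression filter, 1 coefficient per type, 8 residual degrees of freedom), tested on simulated data first. Alternatives used limma 3.58.1 and DESeq2 1.42.0, other scalings and filters, thinning, a replicate block and libraries left out. CPM use plain gene count totals, with exon lengths from a GRCm38 annotation. Log2 profiles for correlations used a prior count of 2. Intervals and limits for 0 counts cover counting error only, since amplified reads are not independent molecules.

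Libraries with the same replicate number share a date in the deposited names, so the number was also used as a block. The 18 correlations of same-numbered libraries' deviations from their type means lay between -0.018 and 0.032. All 10 regulators were named, together with up to 3 called genes per list, genes behind counts of 5 or fewer, and 3 most similar genes per regulator above 10 CPM. Klf4, Tcl1, Nodal and the cell type markers given by name, and the list genes called higher in endoderm, were chosen after their values were seen. The regulators and lists were chosen with earlier results of these data known. A result for a gene of the naive list is not reported here.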

Additional observations from a re-analysis of the deposited data

How the results depend on the processing

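Among 821 refits of 53 results, beside the reported values, 740 kept direction and side of the threshold. Nanog was called in 9 of 16 alternatives against hematopoietic mesoderm in endoderm, with adjusted p from 1.7e-05 (DESeq2) to 0.162 (all libraries numbered 3 left out, added after seeing the data), and it was not called in any of the 6 fits with a library left out. The replicate block changed no call among the 10 regulators, and Nanog and Lin28b stayed called with it in endoderm against hematopoietic mesoderm (adjusted p of 0.0444 and 0.00506), but it lowered the number of genes called from 253 to 133 (YFP-positive cardiac against hematopoietic mesoderm) and from 84 to 31 (YFP-negative). The number of regulators called, 2 in endoderm against hematopoietic mesoderm, was 4 without an expression filter, with voom and with thinning. It was 5 in a fit of only those 2 types and 6 with DESeq2, which gave no adjusted p for Utf1 and Esrrb. It was 1 without the libraries numbered 3, that 1 being neither Nanog nor Lin28b, and 0 to 2 with a library left out. In YFP-positive cardiac against hematopoietic mesoderm 0 became 1 (Sall4) with plain totals, added after seeing the data, with no filter, a 5 CPM minimum, thinning or without the libraries numbered 3, 3 with DESeq2, and 0 to 1 with a library left out. In the YFP-negative fraction it became 1 with no filter, a 5 CPM minimum (Lin28b) or without the libraries numbered 3 (Sall4), 4 with DESeq2, and 0 to 1 with a library left out. Against endoderm, 0 became 1 (DESeq2), 3 (voom) and 2 (only those 2 types) in the YFP-positive and 3 (voom) and 2 (only those 2 types) in the YFP-negative fraction. Over all 14170 genes, the counts called differed from the reported 0, 218, 185, 253, 84 and 800 (pairs in the order of the report) by over 1.5 times with DESeq2, at 112, 929, 605, 1498, 1052 and 1861, with voom in 4 pairs, at 1130, 1812, 18 and 1225, and in fits of only 2 types, at 1063, 1360, 13, 10 and 1258. In the YFP-negative fraction against hematopoietic mesoderm 174 were called with no filter and 133 at a 5 CPM minimum. Without the libraries numbered 3 the last 5 pairs gave 82, 68, 65, 38 and 154, and with a library left out 71 to 159, 69 to 100, 106 to 426, 16 to 247 and 180 to 976, from other numbers of genes tested.
Turned directions concerned differences that were not called, and their cause was not tested. Between the cardiac fractions (YFP-positive minus YFP-negative, log2) Pou5f1 gave -1.16 with voom and -0.017 to 1.62 with a library left out. Nanog gave -0.14 with the replicate block, -1.15 with voom, -0.46 without the libraries numbered 3 and -2.16 to 1.81 with a library left out, Utf1 -1.36 to 4.83 and Lin28b -0.012 to 0.25. Lin28a in the YFP-negative fraction against endoderm gave -0.036 without the libraries numbered 3 and -0.0019 to 0.15 with a library left out, and against hematopoietic mesoderm the YFP-positive fraction gave 0.14 and -0.11 to 0.050. Utf1 against hematopoietic mesoderm gave -0.52 and -0.056 to 5.82 (YFP-positive), and -0.092 with the replicate block, -2.67 and -2.18 to 4.47 (YFP-negative). Esrrb against hematopoietic mesoderm gave 3.66 and -10.10 to 3.17 (YFP-negative), and 1.70 with the replicate block, 4.87 with voom, 8.28 and -1.78 to 9.31 (endoderm). The fits without the libraries numbered 3 leave 2 libraries per type, and depth limits the 7 low genes, many of whose mesoderm values lie under the 3-count limit.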
